A study of Mus musculus with 24 samples.

Results

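The genes described here were 9 transcripts that mark hepatic stellate cells or encode the fibrous matrix of the liver, measured in RNA-seq of isolated mouse hepatocytes. They were chosen by gene symbol, and all 9 were found among the 55421 genes of the count table and passed the filter on low counts that left 13583 genes for testing. They comprised the fibrillar collagens Col1a1, Col1a2 and Col3a1, the collagen-binding proteoglycans Dcn and Lum, the stellate cell markers Lrat, Reln and Ecm1, and the filament gene Des.

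The hepatocytes came from 24 male mice in 4 groups of 6, young or old and fed a normal (ND) or a high fat diet (HFD). HFD supplied 60% of its energy as fat and each diet was fed for 9 weeks, after at least 2 weeks of rest. The sample labels give ages of 6 months for young and 24 months for old mice, ages which differ from those in the paper. All young mice are labelled C57BL/6N and all old mice C57BL/6J, so that age and substrain cannot be told apart. The labels name a commercial chow for ND where the paper names another diet. The labels of these mice name no transgene or drug. Cells were released by collagenase perfusion of the liver and purified on Percoll, and polyA RNA was sequenced in 2 batches, named in the sample titles. Each batch held 3 mice of a group, with the exception of old ND, where 2 of the mice were in batch 1 and 4 were in batch 2.

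Hepatic stellate cells lie between the sinusoidal endothelium and the hepatocytes, store vitamin A as retinyl esters and, when activated, turn into myofibroblasts that lay down fibrillar collagen. In a healthy liver their transcripts are far more abundant in stellate cells and fibroblasts than in hepatocytes. In bulk RNA such as this, fewer cells of a type and less RNA per cell cannot be told apart.

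The labelled cell type was checked first. Albumin transcripts (Alb) reached 29008 to 128235 CPM (counts scaled to library size) over the 24 mice, Ttr, which encodes transthyretin, 1984 to 7829 CPM, and the hepatocyte regulator Hnf4a 212 to 712 CPM. The summed level of the 9 genes was 7.24 to 515 CPM, against 49629 to 165744 CPM for 12 hepatocyte genes, so stellate cell and matrix transcripts were a minor component of every library. Total counts per mouse ran from 9200332 to 22185069. Old ND replicate 4 stood apart, with the highest sum of the 9 genes (515 CPM), the lowest hepatocyte sum (49629 CPM) and the highest sums of endothelial (1416 CPM) and Kupffer cell markers (1502 CPM).

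The 9 genes lay on 6 chromosomes of the mouse genome (GENCODE annotation of GRCm38, the mm10 build of the count table). Col1a1 was at chr11:94936224-94953042, Col1a2 at chr6:4504814-4541544, and Col3a1 at chr1:45311538-45349706. Dcn (chr10:97479609-97518143) and Lum (chr10:97565128-97572703) lay on the same strand of chromosome 10, Lrat was at chr3:82892579-82903973 and Ecm1 at chr3:95734147-95739569. Reln was at chr5:21884454-22344702 and Des at chr1:75360329-75368579. Exons of Reln and Des overlapped those of the antisense genes Gm10475 and Gm15179, and exons of Col3a1 and Ecm1 held the annotated miRNA genes Gm47302 and Mir7014, and how the counting handled such overlaps and strand is not given in the sources used here.

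Sequence before the start site is shown for a pair of collagen genes and a pair of stellate cell markers, the kinds of gene whose values are set side by side below. The 250 bases before the start are from RefSeq (GRCm38.p6), which gave a promoter for 6 of the 9 genes and none for Col1a1, Dcn and Lum. They run 5′ to 3′ on the gene's own strand, which is plus at chr6:4505368-4505617 for Col1a2 and chr1:45311288-45311537 for Col3a1 and minus at chr3:82903975-82904224 for Lrat and chr3:95739570-95739819 for Ecm1. For Col1a2 the RefSeq start lay 804 bases inside the GENCODE gene given above, so its window falls within that gene. Capitals mark 3 short motifs of promoters, namely TATAA, then CCAAT, and lastly GGGCGG, on either strand.
Col1a2: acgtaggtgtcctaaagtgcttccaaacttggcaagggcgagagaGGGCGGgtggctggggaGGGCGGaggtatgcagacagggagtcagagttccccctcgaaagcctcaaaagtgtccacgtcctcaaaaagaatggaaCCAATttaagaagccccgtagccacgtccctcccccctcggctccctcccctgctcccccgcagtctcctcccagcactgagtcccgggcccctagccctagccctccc
Col3a1: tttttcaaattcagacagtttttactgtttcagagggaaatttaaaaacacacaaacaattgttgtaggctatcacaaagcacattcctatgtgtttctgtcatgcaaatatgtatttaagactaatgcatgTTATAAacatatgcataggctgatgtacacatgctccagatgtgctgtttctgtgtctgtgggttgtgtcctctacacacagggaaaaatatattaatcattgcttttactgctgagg
Lrat: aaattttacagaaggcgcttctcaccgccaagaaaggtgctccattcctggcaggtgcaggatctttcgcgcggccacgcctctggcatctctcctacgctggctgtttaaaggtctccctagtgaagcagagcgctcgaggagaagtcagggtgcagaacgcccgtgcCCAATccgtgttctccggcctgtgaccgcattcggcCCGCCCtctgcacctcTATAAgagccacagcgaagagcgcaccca
Ecm1: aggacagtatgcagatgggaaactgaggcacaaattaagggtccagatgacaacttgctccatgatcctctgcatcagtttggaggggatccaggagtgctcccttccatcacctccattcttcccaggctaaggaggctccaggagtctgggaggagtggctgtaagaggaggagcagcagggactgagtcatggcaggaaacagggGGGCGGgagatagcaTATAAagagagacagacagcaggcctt

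Of 32851 mouse promoters of this length, 22.8% held TATAA, 33.8% held CCAAT and 32.7% held GGGCGG on either strand. Counted from the start site, TATAA lay at -29 to -25 in Lrat and at -27 to -23 in Ecm1, whereas in Col3a1 it lay at -117 to -113, where the letters TTATAA hold it on both strands. CCAAT stood at -109 to -105 in Col1a2 and at -81 to -77 in Lrat. GGGCGG was present in Col1a2, Lrat and Ecm1, and in the unprinted windows of Reln at 6 positions and of Des at 2 positions.

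The fibrillar collagens were lowest in young ND and highest in the old groups. Col1a1, which encodes the alpha-1 chain of type I collagen, ranged from 0 to 0.375 CPM (median 0.0794) across young ND mice and from 0.339 to 3.21 CPM (median 0.519) across young HFD mice, and it ranged from 0.122 to 12.005 CPM (median 3.35) across old ND and from 0.429 to 7.99 CPM (median 5.17) across old HFD mice. Every old HFD mouse lay above every young ND mouse, whereas 1 old ND mouse lay within the young ND range. The 6 young ND libraries held 16 Col1a1 reads in all, and the 3 of batch 1 held none, so the level in those 3 mice is known only as under a floor of 3 counts per library. Against that floor of 0.201 CPM, mean Col1a1 in batch 1 was at least 40.0-fold higher in old ND, at least 20.8-fold higher in old HFD and at least 3.49-fold higher in young HFD. These bounds rest on few mice and were 20.3-fold without old ND replicate 1, 11.6-fold without old HFD replicate 1 and 2.24-fold without young HFD replicate 1.

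Col1a2, the alpha-2 chain of the same collagen, ranged from 0 to 1.39 CPM (median 0.518) across young ND mice and from 0.565 to 7.76 CPM (median 1.99) across young HFD mice, and it ranged from 1.71 to 12.7 CPM (median 7.24) across old ND and from 2.36 to 15.01 CPM (median 8.42) across old HFD mice. All 12 old mice were above all 6 young ND mice, and 5 of the 6 young HFD mice were as well. Col3a1, which encodes type III collagen, ranged from 0 to 4.92 CPM (median 1.35) across young ND mice and from 1.75 to 16.4 CPM (median 4.70) across young HFD mice, and it ranged from 3.86 to 29.7 CPM (median 15.8) across old ND and from 3.65 to 24.1 CPM (median 9.08) across old HFD mice. Its old and young ND ranges overlapped in a few mice only, as 4 of 6 old ND mice lay above every young ND mouse.

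The proteoglycans were also lowest in young ND. Dcn, which encodes decorin, a collagen-binding proteoglycan that also binds TGF-beta, ranged from 2.22 to 37.7 CPM (median 16.2) across young ND mice and from 8.48 to 104 CPM (median 31.5) across young HFD mice, and it ranged from 23.02 to 252 CPM (median 60.5) across old ND and from 14.7 to 219 CPM (median 34.1) across old HFD mice. Lum, which encodes the related fibril-spacing proteoglycan lumican, ranged from 0.142 to 1.28 CPM (median 0.616) across young ND mice and from 0.575 to 4.85 CPM (median 1.12) across young HFD mice, and it ranged from 2.54 to 9.40 CPM (median 3.30) across old ND and from 0.483 to 7.74 CPM (median 1.51) across old HFD mice. For Lum the old ND and young ND mice did not overlap, whereas old HFD mice spread across the ranges of both.

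Among the stellate cell markers, Lrat, which encodes the enzyme that esterifies retinol for storage, ranged from 0.189 to 4.41 CPM (median 2.84) across young ND mice and from 1.47 to 24.9 CPM (median 4.92) across young HFD mice, and it ranged from 1.91 to 32.9 CPM (median 7.20) across old ND and from 0 to 27.0 CPM (median 4.70) across old HFD mice. Ecm1, a secreted glycoprotein known to hold TGF-beta in its latent form, ranged from 1.42 to 29.7 CPM (median 11.4) across young ND mice and from 4.24 to 94.6 CPM (median 22.2) across young HFD mice, and it ranged from 8.26 to 105 CPM (median 41.1) across old ND and from 5.48 to 103 CPM (median 17.03) across old HFD mice. Both genes spread widely within every group, and for neither did the ranges of any pair of groups separate. Reln, which encodes the secreted protein reelin, had medians of 7.28, 12.7, 18.5 and 8.75 CPM in young ND, young HFD, then old ND and old HFD mice, and values between 1.77 and 57.6 CPM.

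Des, which encodes desmin, an intermediate filament of stellate and muscle cells, had medians of 0.778, 1.09, 2.78 and 0.435 CPM in the same order of groups. Old HFD replicate 2 had no read of Des or Lrat, while old HFD also held the highest Des value of any mouse, 10.9 CPM. The plot of log2 CPM by mouse shows how the values of all 9 genes fell by group and batch. By group mean, young ND was lowest for all 9 genes, old ND was highest for 7 and old HFD was highest for Col1a1 and Col1a2. Every gap between neighbours in that order was smaller than the larger SD of the pair (n = 6), and their ranges overlapped.

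**Figure D1:**
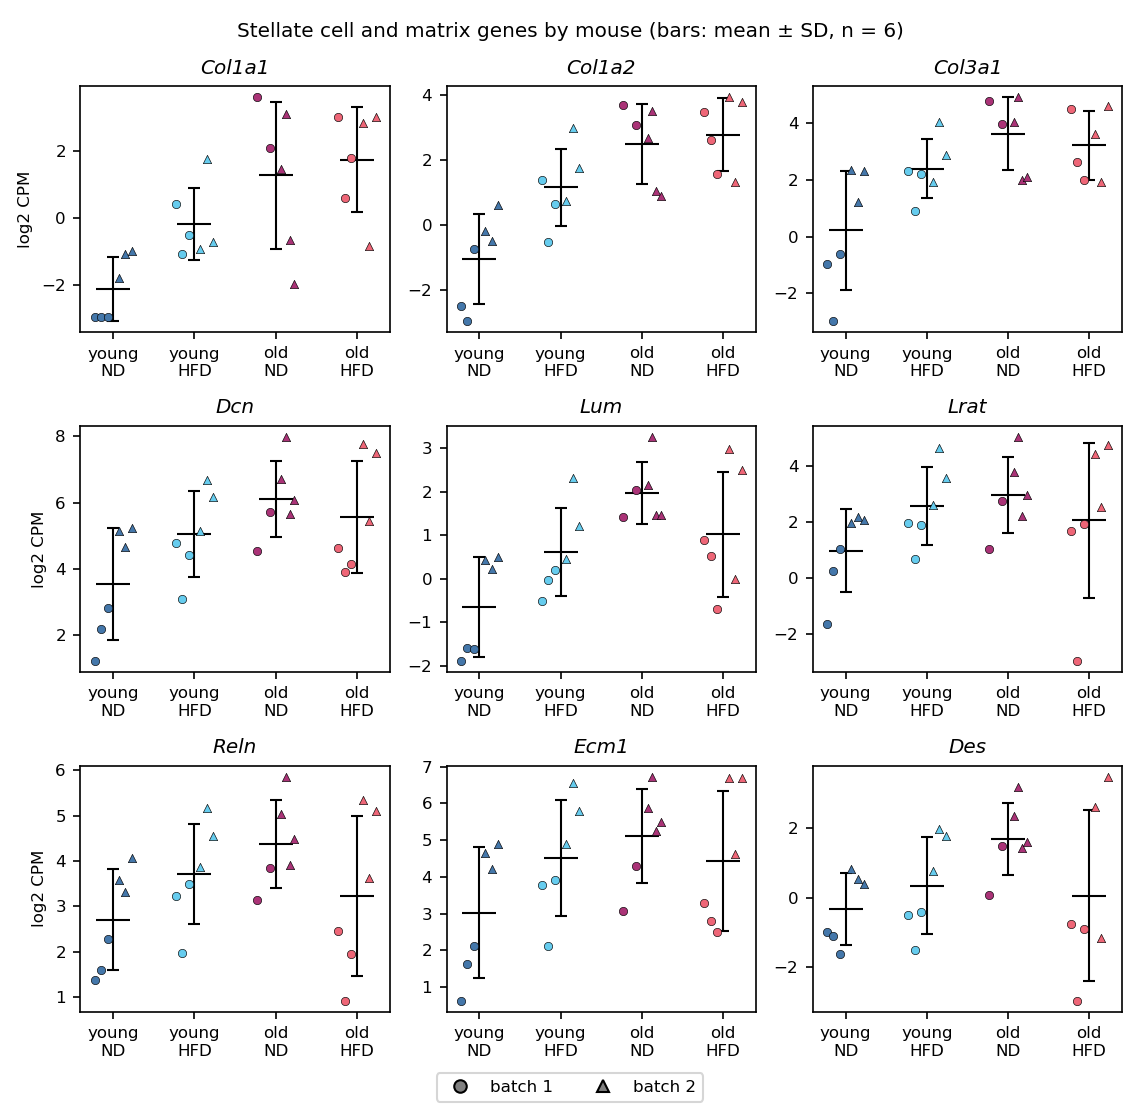
Log2 CPM of the 9 genes (vertical axes, each with its own scale) in each mouse of the 4 groups, circles for batch 1 and triangles for batch 2, with horizontal bars for the mean and error bars for the SD of 6 mice. A prior count of 2 was added before the logarithm, so libraries with no read, such as the 3 young ND mice of batch 1 for Col1a1, lie at the lowest positions.

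Levels were compared between genes per length, as mean CPM over the 24 mice per kilobase of merged exons. Ecm1 (13.6 CPM per kilobase) and Dcn (10.2) were highest and Lrat followed at 1.52. Lum (0.984), Col3a1 (0.934), Reln (0.691) and Des (0.623) came next, and Col1a1 (0.399) and Col1a2 (0.378) were lowest. In young ND, Ecm1 stood at 5.41 ± 4.90 (SD, n = 6) and Dcn at 3.19 ± 2.75 CPM per kilobase, a difference smaller than either SD, while Col1a1 stood at 0.0223 ± 0.0269. In old ND the same 3 genes stood at 18.1 ± 13.6, 15.7 ± 14.2 and 0.704 ± 0.716 CPM per kilobase.

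The effect of age on ND was tested first. Of the 9 genes, 8 rose in old ND relative to young ND at an adjusted p under 0.05 (edgeR's quasi-likelihood test with a batch term and Benjamini-Hochberg adjustment over 13583 genes), where 7.26% of all tested genes were called higher. Their median log2 fold change was 2.34, beside 0.01 over all tested genes. The changes of the collagens were 4.93 for Col1a1 (SE 1.02, adjusted p = 0.00484), 3.82 for Col1a2 (SE 0.72, adjusted p = 0.00335) and 3.13 for Col3a1 (SE 0.72, adjusted p = 0.00869) on the log2 scale. Dcn rose by 2.34 (SE 0.45, adjusted p = 0.00362) and Lum by 2.77 (SE 0.51, adjusted p = 0.00324). Ecm1 rose by 1.68 (SE 0.40, adjusted p = 0.0106), Reln by 1.47 (SE 0.38, adjusted p = 0.0176) and Des by 2.06 (SE 0.63, adjusted p = 0.0428). Lrat had a log2 fold change of 1.89 (SE 0.60) and an adjusted p of 0.0517, with 5 of 6 old ND mice above every young ND mouse. CPM ranges did not overlap for Col1a2 and Lum, whereas 2.08% of all tested genes had higher, non-overlapping ranges in old ND.

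All 9 genes had positive log2 fold changes for age on ND within each batch. In batch 1 they were 5.98 for Col1a2, 6.09 for Col3a1, 4.14 for Lum, 3.10 for Dcn, 2.30 for Ecm1, 2.05 for Lrat, 1.80 for Reln and 2.54 for Des, with 5 of the 9 genes called where 0.679% of all tested genes were called higher. In batch 2 they were 2.51, 1.73, 1.98, 1.84, 1.32, 1.82, 1.30 and 1.79 in the same order, with 0 of the 9 genes called by edgeR, where 2 of all tested genes (0.0140%) were called higher and 2385 had an unadjusted p under 0.05, among them 9 of the 9. Col1a1 is left out of the batch 1 values because its 3 young ND libraries there held no read, and its value in batch 2 was 3.25. The batch 1 values of Col1a2, Col3a1 and Lum rest on 8, 16 and 9 reads in the 3 young ND libraries, so their size is imprecise. The call of Reln was lost without old ND replicate 2 (adjusted p = 0.0588) or 4 (adjusted p = 0.0621), and Des kept its call in 13 of 24 fits that each left out 1 mouse. Without the batch term the calls of Dcn (adjusted p = 0.0871), Ecm1 (0.230), Reln (0.154) and Des (0.172) were lost and those of the 3 collagens and Lum were kept, where 3.98% of all genes were called higher.

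The effect of HFD in young mice had the same direction for all 9 genes, with fewer calls. Dcn (log2 fold change 1.56, SE 0.44, adjusted p = 0.0493) and Ecm1 (1.59, SE 0.40, adjusted p = 0.0313) rose, which is 2 of 9 genes where 1.91% of all tested genes were called higher. The other 7 genes had log2 fold changes from 0.88 for Des (SE 0.63, adjusted p = 0.468) to 2.73 for Col1a1 (SE 1.01, adjusted p = 0.118), and Col1a2 had 2.37 (SE 0.70, adjusted p = 0.0579). The median of the 9 genes was 1.59, beside 0.01 over all tested genes. For no gene were the groups apart, as at least 1 young HFD mouse fell within the young ND range, whereas 1.77% of all tested genes had higher, non-overlapping ranges in young HFD. Within batches the change of Dcn was 2.08 and 1.13 and that of Ecm1 1.94 and 1.31 in batches 1 and 2. In either batch alone 0 of the 9 genes were called, where edgeR called 0.701% and 0.0281% of all genes higher. An unadjusted p under 0.05 was found for 7 and 3 of the 9 genes, beside 1843 of 13543 and 1154 of 14243 over all genes. DESeq2 called 6 of the 9 genes and 6.25% of all genes higher, and leaving out 1 mouse at a time kept Dcn called in 9 and Ecm1 in 16 of 24 fits. Without the batch term both calls were lost (adjusted p = 0.446 for each), where 0.633% of all genes were called higher.

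In old mice, HFD against ND gave log2 fold changes from -0.69 to 0.22 for the 9 genes, with a median of -0.22 beside -0.01 over all genes. None of the 9 was called by edgeR with the filter on low counts or by DESeq2, where 3.01% of all tested genes were called in either direction by edgeR and 8.28% by DESeq2. Without the filter edgeR called Reln lower (-0.72, adjusted p = 0.00338) and 3.43% of all genes in either direction. With the filter, the lowest adjusted p of edgeR was 0.278, for Reln (-0.69, SE 0.37). The unadjusted p was under 0.05 for 0 of the 9 genes and for 2990 of all 13583 genes. The collagens had values of 0.00 for Col1a1, 0.22 for Col1a2 (SE 0.60) and -0.40 for Col3a1 (SE 0.63). The batches differed in direction: in batch 1 all 9 log2 fold changes were negative, with a median of -1.02, and in batch 2 the value was positive for 8 genes, with a median of 0.33. An unadjusted p under 0.05 was found for 3 of the 9 genes in batch 1 and 0 in batch 2. Over all genes it was found for 1837 of 13543 and 1550 of 14243.

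Old HFD against young HFD gave log2 fold changes above 0 for 7 of the 9 genes and below 0 for Reln (-0.33, SE 0.38) and Ecm1, with a median of 0.56 beside 0.01 over all genes. None of the 9 genes was called by edgeR with the filter on low counts or by DESeq2. Of all tested genes, 1.82% were called higher by edgeR and 4.63% by DESeq2. With the filter, the unadjusted p of edgeR was under 0.05 for Col1a1 (0.0143) and Col1a2 (0.0130), and for 2848 of all 13583 genes. Col1a1 was 4.60-fold higher (adjusted p = 0.140), the most of the 9. Col1a2 had a log2 fold change of 1.66 (SE 0.62, adjusted p = 0.136) and Col3a1 of 1.04 (SE 0.65, adjusted p = 0.364). Of the other stellate cell markers, Lrat had 0.07 (SE 0.56), with -0.38 in batch 1 and 0.33 in batch 2, and Ecm1 had -0.06 (SE 0.38), with -0.61 and 0.35. Without the filter edgeR called Col1a1 (2.16, adjusted p = 2.51e-06), Col1a2 (1.61, adjusted p = 2.37e-06), Col3a1 (0.999, adjusted p = 0.000166) and Dcn (0.52, adjusted p = 0.0308) higher, where 2.71% of all genes were.

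Old HFD against young ND, which differed in age and diet, gave 7 of 9 genes called higher where 17.3% of all tested genes were. The log2 fold changes were 4.93 for Col1a1 (SE 1.01, adjusted p = 0.00149), 4.03 for Col1a2 (SE 0.71, adjusted p = 0.000553), 2.73 for Col3a1 (SE 0.71, adjusted p = 0.00718), 2.12 for Dcn (SE 0.44, adjusted p = 0.00170) and 2.17 for Lum (SE 0.51, adjusted p = 0.00361). Ecm1 and Lrat rose by 1.53 (SE 0.40, adjusted p = 0.00712) and 1.75 (SE 0.60, adjusted p = 0.0322), and the call of Lrat was lost without young ND replicate 1, 4, 5 or 6 or old HFD replicate 4 or 6 (adjusted p = 0.0614 to 0.0888). Without the batch term the calls of Lrat (adjusted p = 0.0948) and Ecm1 (adjusted p = 0.154) were lost, where 12.5% of all genes were called higher. In batch 1 alone the 3 collagens, Dcn and Lum were called where 4.24% of all genes were called higher. In batch 2 alone Col1a2 was called where 2.40% were. At an unadjusted p under 0.05 there were 6 of the 9 genes and 3641 of all 13543 genes in batch 1, and 8 of the 9 and 4355 of all 14243 in batch 2. Reln (0.78, adjusted p = 0.125) and Des (1.39, adjusted p = 0.0980) did not pass. The groups did not overlap for Col1a1 and Col1a2, against 2.99% of all tested genes with higher, non-overlapping ranges. This comparison and those above share groups of mice, so their values for the 9 genes are not independent of each other.

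The age by diet interaction, which asks whether the response to HFD differed between young and old mice, was negative for all 9 genes. The log2 values ran from -2.73 for Col1a1 (SE 1.28) to -1.54 for Des (SE 0.86), with a median of -1.82 beside -0.03 over all genes. None of the 9 genes was called by edgeR, with adjusted p from 0.531 to 0.584, where 0 of all 13583 genes were called (background 0%). At an unadjusted p under 0.05 there were 8 of the 9 genes, all but Des, and 1247 of all genes. The smallest unadjusted p was 0.00241, for Reln (-1.80, SE 0.53). The batches differed in size. In batch 1 alone the median was -3.25, with 8 of the 9 genes, all but Lrat, and 666 of all genes at an unadjusted p under 0.05. In batch 2 alone the median was -1.20, with 0 of the 9 and 391 of all genes. None of the 9 and none of all genes was called by edgeR in either batch, and the difference between the batches was not tested. DESeq2 called 4 of all genes and none of the 9, whereas edgeR without a filter on low counts called 587 of 32336 genes and 8 of the 9, all 8 lower where 1.51% of all genes were called lower.

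**Figure D2:**
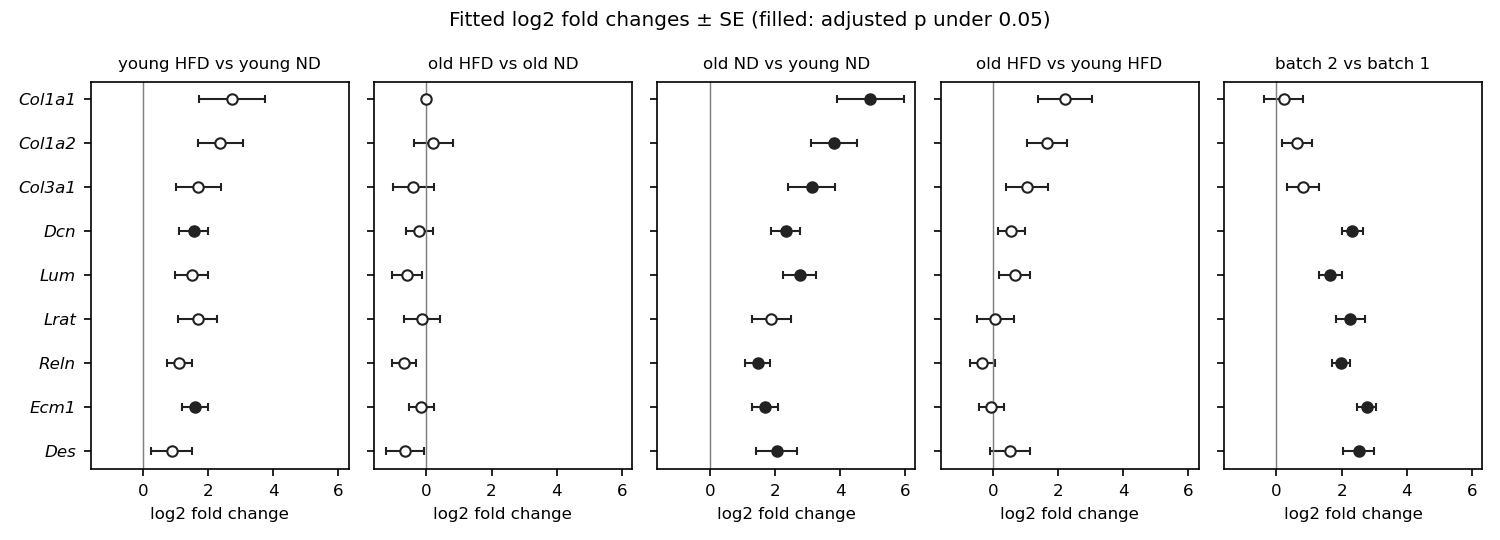
Fitted log2 fold changes (horizontal axis) of the 9 genes in 4 group comparisons and between batches, with points for the estimate from 24 mice, bars for the SE and filled points for an adjusted p under 0.05. Filled points number 2, 0, 8, 0 and 6 from left to right, and in the batch panel the 3 collagens are unfilled. Col1a1 is drawn without a bar at a fold change of 0.00 in old HFD against old ND.

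Levels of the 9 genes also differed between the batches. Between batch 2 and batch 1, adjusted for group, 6 of the 9 genes were called higher, where 18.0% of all tested genes were. Log2 fold changes were 2.77 for Ecm1 (SE 0.30, adjusted p = 4.15e-06), 2.52 for Des (SE 0.46, adjusted p = 0.000407), 2.33 for Dcn (SE 0.32, adjusted p = 3.93e-05), 2.27 for Lrat (SE 0.43, adjusted p = 0.000524), 1.98 for Reln (SE 0.28, adjusted p = 4.40e-05) and 1.65 for Lum (SE 0.35, adjusted p = 0.00135). The collagens had smaller values, 0.23 for Col1a1 (SE 0.60, adjusted p = 0.802), 0.64 for Col1a2 (SE 0.46, adjusted p = 0.294) and 0.82 for Col3a1 (SE 0.48, adjusted p = 0.202). For Ecm1 and Reln every batch 2 mouse lay above every batch 1 mouse of its own group in all 4 groups, whereas for each collagen this held in 1 group. How many of all tested genes separated in this way was not counted, so these counts are a description only. The difference between the collagens and the other genes in their batch change was not tested.

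The balance of collagen to proteoglycan varied among mice, and is given as a description of a ratio chosen after its values were seen. The 3 collagens had a median of 15.5 reads per 100 Dcn reads in young ND (0 to 19.1) and of 28.6 in young HFD (15.2 to 31.3). In old ND the ratio was 52.2 and 226 in the 2 mice of batch 1 and 8.75 to 23.9 in the 4 mice of batch 2. In old HFD it was 57.1 to 168 in batch 1 and 14.8 to 25.4 in batch 2. The 5 old mice of batch 1 thus had more collagen reads per Dcn read than any other mouse, while old and young mice of batch 2 overlapped.

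**Figure D3:**
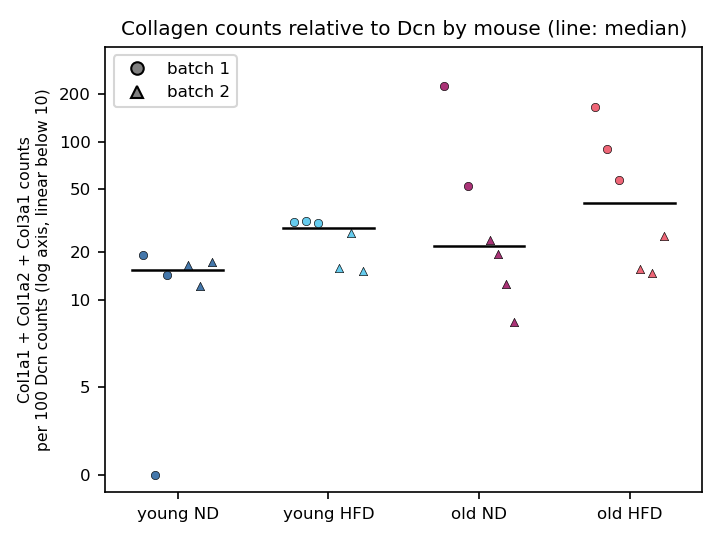
Summed Col1a1, Col1a2 and Col3a1 counts per 100 Dcn counts (vertical axis, logarithmic and linear below 10) in each mouse of the 4 groups, circles for batch 1, triangles for batch 2 and lines for the group median. The 5 old mice of batch 1 lie between 52.2 and 226, above all other mice.

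Ratios of the stellate cell markers to Dcn were found in the same way. Ecm1 had 61.0 to 78.7 reads per 100 Dcn reads in young ND, 49.5 to 91.3 in young HFD, 35.9 to 75.3 in old ND and 31.3 to 57.6 in old HFD. Reln had 33.8 to 111, 32.5 to 52.3, 22.8 to 37.4 and 11.98 to 27.8 reads per 100 Dcn reads in the same order of groups, so old HFD mice had fewer Reln reads per Dcn read than any young mouse. Lrat had 8.51 to 27.6, 13.7 to 24.0, 8.28 to 13.1 and 0 to 21.2 reads per 100 Dcn reads. These ratios were likewise chosen after their values were seen and were not tested.

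Variation between mice of the same group and batch was shared by the 9 genes. After the mean of each group and batch was removed from log2 CPM, the 36 pairs of genes had Pearson correlations of 0.419 to 0.965 over 24 mice, and 34 passed an adjusted p of 0.05 in permutation tests within group and batch (two-sided, 63 relations in the family, 100000 permutations). The closest pair was Dcn and Ecm1, with r = 0.965 (permutation p = 3.00e-05, adjusted 0.000315) and rho = 0.958 (permutation p = 3.00e-05, adjusted 0.000420), and r was 0.962 without the 2 mice farthest from the median of Dcn. Col1a2 and Col3a1 had r = 0.915 (permutation p = 2.00e-05, adjusted 0.000252) and rho = 0.884 (permutation p = 5.00e-05, adjusted 0.000450), with r = 0.891 without 2 mice. The weakest was Lum and Lrat, with r = 0.419 (permutation p = 0.105, adjusted 0.105), rho = 0.519 (permutation p = 0.0384, adjusted 0.0404) and r = 0.266 without 2 mice. All values of a mouse come from 1 library, so the genes share its depth and composition.

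The 9 genes varied in the same way with markers of other liver cells. Over the same residuals, their correlations with the summed level of 15 sinusoidal endothelial markers were 0.631 to 0.912, with 13 Kupffer cell and macrophage markers 0.558 to 0.801, and with 11 lymphocyte markers 0.537 to 0.823. All 27 passed an adjusted p of 0.05 by Pearson's r, and 25 of them by Spearman's rho, where Lum failed for Kupffer cell and lymphocyte markers. For Dcn and the endothelial sum r was 0.881 (permutation p = 0.000120, adjusted 0.000945) and rho 0.897 (permutation p = 4.00e-05, adjusted 0.000420), with r = 0.821 without 2 mice. The part of these cells in the results for the 9 genes was not tested.

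**Figure D4:**
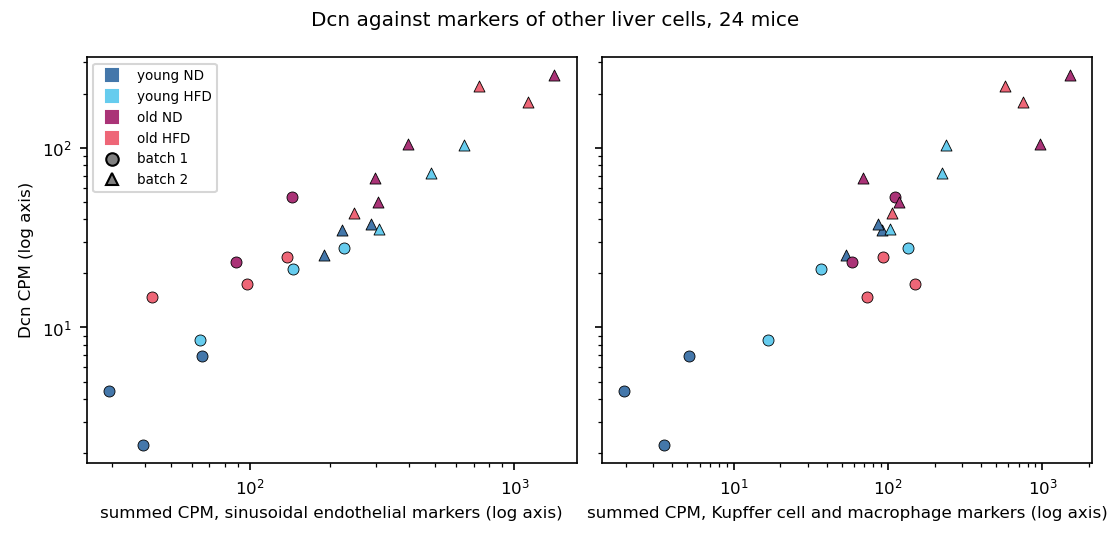
Dcn CPM (vertical axis) against the summed CPM of 15 sinusoidal endothelial markers (left) and 13 Kupffer cell and macrophage markers (right) in 24 mice, all axes logarithmic, with colours for groups, circles for batch 1 and triangles for batch 2. The 3 young ND mice of batch 1 lie lowest for Dcn and old ND replicate 4 lies highest on all 3 measures.

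Marker lists for other cells moved with the same contrasts. In old ND against young ND, 11 of 13 Kupffer cell markers (median log2 fold change 3.42), 7 of 15 endothelial markers (median 1.46) and 4 of 5 tested lymphocyte genes (median 3.53) were called higher, where 7.26% of all tested genes were, including C1qa (3.46, adjusted p = 0.00328) and Stab2 (1.33, adjusted p = 0.0295). Their summed levels were 1.95 to 91.5 CPM in young ND and 58.4 to 1502 CPM in old ND for Kupffer cells, and 29.2 to 286 and 88.6 to 1416 CPM for endothelium. In young HFD the sums were 16.6 to 238 and 64.6 to 646 CPM, and in old HFD 72.7 to 747 and 42.4 to 1128 CPM. Of the 12 hepatocyte genes none rose and G6pc fell in old ND against young ND (-1.01, adjusted p = 0.0311), where 1.24% of all tested genes were called lower. Of the 7 cholangiocyte genes 2 could be tested and 0 were called in that comparison. Thy1 was the only call there among 4 tested portal fibroblast and mesothelial genes (adjusted p = 0.0166), from 6 reads over the 6 young ND libraries, with Clec3b at 0 in 20 mice. Between batches, all 15 endothelial and 12 of 13 Kupffer cell markers were called higher in batch 2, where 18.0% of all tested genes were. When old HFD was compared with young ND, 10 of 13 Kupffer cell markers, 12 of 15 endothelial markers and 5 of 5 lymphocyte genes were called higher (17.3% of all genes), and 4 of 12 hepatocyte genes were called lower (12.9% of all genes) and 1 higher.

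Of the 3 tested genes of the red blood cell list, Alas2 fell in old ND against young ND (-0.58, adjusted p = 0.0453), where 1.24% of all tested genes were called lower. Its mean was 125 CPM in young ND and 81.6 CPM in old ND, far above the globin genes of the list. Which cells gave its reads was not tested. In young HFD the globin genes Hbb-bs (3.55, adjusted p = 0.0106) and Hba-a1 (3.74, adjusted p = 0.0419) rose from means of 0.318 and 0.132 CPM, and all 15 young ND reads of Hba-a1 were in 1 mouse. In old HFD relative to young ND both globin genes rose as well, Hbb-bs by 2.89 (adjusted p = 0.00568) and Hba-a1 by 3.66 (adjusted p = 0.00930), while Alas2 fell (-1.06, adjusted p = 0.000381). In young HFD against young ND the other lists had few calls. These were Stab2 of 15 endothelial markers (1.57, adjusted p = 0.0254), Cd5l of 13 Kupffer cell markers (2.63, adjusted p = 0.0463) and 0 of 5 lymphocyte genes, where 1.91% of all tested genes were called higher.

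Other genes of the stellate cell were then examined. Of 16 further stellate cell markers, 10 rose and 0 fell in old ND against young ND, with a median log2 fold change of 1.87, where 7.26% of all tested genes were called higher. They included Cygb, which encodes cytoglobin (3.18, SE 0.61, adjusted p = 0.00362). In young HFD 1 of the 16 rose, Rgs5, a regulator of G protein signalling (1.70, SE 0.46, adjusted p = 0.0417), where 1.91% of all genes were called higher. Of the 16, 11 rose in old HFD against young ND (17.3% of all genes), and the batch contrast called 14 of the 16 higher (18.0% of all genes).

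Of 16 myofibroblast and smooth muscle genes, 9 had enough counts to test, and Cnn1 and Actg2, which mark contractile smooth muscle, were at 0 in 22 and 21 mice. In old ND 6 of the 9 rose (7.26% of all genes), including Thbs1, which encodes the matricellular protein thrombospondin-1 (adjusted p = 0.00328). Thbs1 had 4 reads in all over the 6 young ND libraries, 3 of them with none, and 141 over the 6 old ND libraries, 1 of them with none, so that no size is given for its change. Tpm2, a tropomyosin gene, rose in old HFD against old ND (1.81, SE 0.31, adjusted p = 0.00350), the only call in that comparison among the 95 tested genes of the myofibroblast, stellate cell, matrix, collagen processing, TGF-beta and retinoid lists, which is 1.05% where 3.01% of all tested genes were called in either direction.

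Of the other collagens and matrix proteins, 22 of 28 could be tested. In old ND 13 of the 22 rose and 0 fell where 7.26% of all genes were called higher, with a median log2 fold change of 1.94, including the proteoglycan gene Bgn (2.23, SE 0.42, adjusted p = 0.00335) and Col5a2, a fibrillar collagen (3.14, SE 0.63, adjusted p = 0.00442). In young HFD 2 rose (1.91% of all genes), Bgn (1.52, SE 0.41, adjusted p = 0.0427) and Col14a1 (1.58, SE 0.45, adjusted p = 0.0494). In old HFD against young ND 10 rose and 0 fell, beside 17.3% and 12.9% of all genes. Of 17 tested enzymes and inhibitors of collagen processing, 4 rose in old ND and 0 in young HFD, beside the same 7.26% and 1.91% of all genes, and 0 fell in either. Those in old ND were Timp2 (2.25, adjusted p = 0.0160), Serpinh1, the collagen chaperone (1.93, adjusted p = 0.0254), Pcolce (1.77, adjusted p = 0.0434) and Adamts2, a procollagen protease (2.27, adjusted p = 0.0453), the last pair named after their values were seen. The list's median was 0.12. The comparison of old HFD with young ND had 5 higher and 3 lower, beside 17.3% and 12.9% of all genes. The 3 that fell, named after their values were seen, were the metalloproteinase gene Mmp19 (-0.60, adjusted p = 0.00532) and the collagen prolyl hydroxylase genes P4ha2 (-0.59, adjusted p = 0.0212) and P3h1 (-0.52, adjusted p = 0.0470).

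The TGF-beta pathway, the main known inducer of collagen genes in stellate cells, had 3 of 18 tested genes higher and 0 lower in old ND, where 7.26% of all genes were called higher, with a median log2 fold change of 0.01. The 3 were the ligand gene Tgfb1 (1.97, SE 0.50, adjusted p = 0.0161), Ltbp1, which encodes a latent TGF-beta binding protein (2.44, SE 0.66, adjusted p = 0.0219), and the receptor gene Tgfbr2 (0.70, adjusted p = 0.0416), the last named after its value was seen. None of the 18 was called in young HFD. Between old HFD and young ND, 3 were higher in old HFD and 6 lower, beside 17.3% and 12.9% of all genes, with a median of -0.15. The 6 had log2 fold changes from -0.76 to -0.37, and included Smad3, which encodes a signal transducer of the pathway (-0.71, adjusted p = 0.0369), and Smurf1, which encodes a ubiquitin ligase (-0.70, adjusted p = 0.00429), both named after their values were seen. Among the retinoid handling genes, a list that includes Lrat, the genes Lpl (2.64, adjusted p = 0.00962) and Rarg (1.40, adjusted p = 0.0199, named after its value was seen) rose in old ND. Cyp26a1, which encodes a retinoic acid hydroxylase, fell in young HFD against young ND (-2.36, SE 0.44, adjusted p = 0.00442), from 55.7 ± 55.0 to 10.7 ± 1.68 CPM (SD, n = 6), and was higher in old HFD than in young HFD (2.91, SE 0.45, adjusted p = 0.00293). The retinoid transporter gene Stra6 was at 0 in all 24 mice.

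The genes most like each of the 9 over the 24 mice were found by Pearson's correlation of log2 CPM after the mean of each batch was removed, as a description that includes differences between groups. For Dcn they were Bgn (0.976), Pam (0.965) and Colec11 (0.963), and for Ecm1 Plvap, an endothelial gene (0.961), Pam (0.946) and Colec11 (0.945). For Lrat they were Lrrc32 (0.960), Mcam (0.940) and Ptpre (0.937), and for Reln Colec10 (0.925), Ltbp4 (0.923) and Col14a1 (0.915). Col1a1 was most like Vim (0.934), Lgals3 (0.934) and H2-Aa (0.933), Col1a2 like Bgn (0.938), H2-Eb1 (0.936) and Wls (0.935), and Col3a1 like Arhgdib (0.933), Lyz2 (0.927) and Bgn (0.920). H2-Aa, H2-Eb1 and Lyz2 are genes of antigen-presenting and myeloid cells. Lum was most like Sod3 (0.909), Rhob (0.899) and Bgn (0.898), and Des like Chp2 (0.904), Hspg2 (0.902) and Hand2 (0.887). Bgn was thus among the nearest genes of Dcn, Lum, Col1a2 and Col3a1.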

How the data were processed

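PolyA RNA of isolated hepatocytes from 24 mice was measured in 2 batches, and each mouse was assigned to group, replicate and batch from the sample labels. As deposited by the authors, counts are whole numbers of reads per gene, made with STAR 2.7.3a on mm10 and HTSeq 0.11.2 after read checks with FastQC 0.11.8, per the labels. They also deposited FPKM values of 37789 genes, made with CuffLinks and, per the deposited table, adjusted between batches. The use of strand is not given in the sources used here. FPKM served only for alternatives, since the implied gene lengths of that table exceeded those of exons.

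Counts were tested with edgeR 4.0.16 (R 4.3.3), with TMM scaling, filterByExpr (minimum count 10), and group and batch as terms of a single model for all mice. Quasi-likelihood F tests were adjusted by Benjamini-Hochberg over 13583 genes, at an adjusted p of 0.05. The test was also run on simulated counts, with results that are not reported here. SEs are the log2 fold change over the square root of F. Total counts of 9200332 to 22185069 per mouse set the precision of low genes, and intervals and floors of 3 counts cover counting error only. Counts of mice of 1 group differed beyond sampling noise (chi-square at least 15.2 per degree of freedom over 60 pairs). Marker sums had 0.5 CPM added before logarithms. Correlations were tested by permutation within group and batch.

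The 9 genes and the marker lists were chosen with earlier results of these data known. Genes named beside the 9 were, by rule, in each list and comparison the 2 called genes whose adjusted p was smallest, or else the 2 with the highest CPM, the 3 genes most like each of the 9, and Alb, Ttr and Hnf4a. Of these, the text prints those that bear on a sentence. Some genes that the rule names are not reported here. Alternatives were DESeq2 1.42.0, RLE scaling, no filter, no batch term, a block for the replicate number, only the 2 groups compared, each batch alone, limma 3.58.1 on log2(FPKM + 1) and log2(FPKM + 0.1), and leaving out each mouse. Other steps used pandas 2.3.3, numpy 2.4.6 and scipy 1.17.1 in Python 3.11.15, with matplotlib 3.10.9 for the plots. Whole-liver samples of the study were not analysed here.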

Additional observations from a re-analysis of the deposited data

How the results depend on the processing

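Of the 9 genes, those called in young HFD against young ND numbered 2 where 1.91% of all genes were called higher. They numbered 6 with DESeq2 (6.25% of all genes higher), 8 with no filter on low counts (3.36%) and 7 of 8 with only the mice of the 2 groups compared, where Col1a1 was not tested (10.4%). They numbered 0 without the batch term (0.633%), in batch 1 alone (0.701%) and in batch 2 alone (0.0281%). With limma they also numbered 0 on log2(FPKM + 1) (0.826%), on log2(FPKM + 0.1) (1.15%) and without a filter (0.251%). In old ND against young ND, 8 genes were called (7.26% of all genes higher), and 9 with DESeq2 (10.4%), RLE scaling (7.58%) or no filter (5.47%), 4 without the batch term (3.98%), 5 in batch 1 alone (0.679%), 0 in batch 2 alone (0.0140%), 1 with limma on log2(FPKM + 1) (0.371%), 5 on log2(FPKM + 0.1) (2.43%) and 0 with limma without a filter (0.0838%). In old HFD against young ND, 7 were called (17.3%), and 9 with no filter (9.07%), 5 without the batch term (12.5%), 5 of 7 with only the 2 groups, where Col1a1 and Des were not tested (10.7%), 5 in batch 1 alone (4.24%), 1 in batch 2 alone (2.40%), 7 with DESeq2 (21.8%) or RLE scaling (19.5%), 6 with limma on log2(FPKM + 0.1) (10.2%), 3 with limma on log2(FPKM + 1) (8.40%) and 2 with limma without a filter (3.18%). With no filter on low counts, 1 gene, Reln, was called in old HFD against old ND (3.43% of all genes in either direction), 4 in old HFD against young HFD (3.82%), the 3 collagens and Dcn, and 8 in the interaction (1.82%), against 0 in each. The log2(FPKM + 1) scale compresses changes of genes this low. The causes of the other changes were not tested.

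Leaving out each mouse in turn gave 0 to 4 called genes in young HFD against young ND, 6 to 9 in old ND against young ND, 6 to 8 in old HFD against young ND, and 0 to 0 in the other 3 comparisons. Of the 13729 to 13876 genes tested in these fits, 70 to 508, 524 to 1255 and 1839 to 2920 were called higher in the first 3 comparisons. In old HFD against old ND 84 to 823 were called in either direction, in old HFD against young HFD 40 to 813, and in the interaction 0 to 1. In young HFD against young ND, Dcn was lost without any 1 young ND mouse, young HFD replicate 1, 3, 5 or 6, old ND replicate 1 or 3, or old HFD replicate 1, 3 or 6 (adjusted p 0.0528 to 0.120). Ecm1 was lost without young ND replicate 1, 2, 3, 4 or 5 or young HFD replicate 1, 3 or 5 (0.0504 to 0.0829). Col1a2 was gained without young HFD replicate 2 or 4, old ND replicate 5 or 6 or old HFD replicate 2 or 5 (0.0429 to 0.0465), and Lrat without old HFD replicate 2 (0.0442). In old ND against young ND, Des was lost without any 1 young ND mouse, young HFD replicate 6 or old ND replicate 1, 2, 3 or 4 (0.0510 to 0.155), and Lrat was gained without young ND replicate 3, old ND replicate 1, 5 or 6 or old HFD replicate 2, 5 or 6 (0.0175 to 0.0491). In old HFD against young ND, Lrat was lost without young ND replicate 1, 4, 5 or 6 or old HFD replicate 4 or 6 (0.0614 to 0.0888), and Des was gained without old HFD replicate 2 or 5 (0.0278 to 0.0369).

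Changes of sign were in the 2 comparisons with old HFD where none of the 9 genes was called, and for Des in old HFD against young ND. In old HFD against old ND, Col1a1 (0.00) became -0.0509 with DESeq2, -0.00652 with no filter, -0.98 in batch 1 alone and -0.0417 with limma on log2(FPKM + 1), with or without a filter, and Col1a2 became -0.72 in batch 1 alone. In batch 2 alone Col3a1 became 0.0158, Dcn 0.34, Lum 0.0266, Lrat 0.33, Ecm1 0.34 and Des 0.28. In old HFD against young HFD, Dcn became -0.0318, Lrat -0.38 and Des -0.71 in batch 1 alone, and Reln 0.22 and Ecm1 0.35 in batch 2 alone. Ecm1 became 0.25 without the batch term, Lrat -0.0202 with limma on log2(FPKM + 1), with or without a filter, and -0.29 on log2(FPKM + 0.1), where Des became -0.10. Des in old HFD against young ND became -0.10 in batch 1 alone. When 1 mouse was left out, the values in old HFD against old ND ran from -0.33 to 0.72 for Col1a1, -0.0285 to 0.65 for Col1a2, -0.96 to 0.0789 for Col3a1, -0.48 to 0.12 for Dcn, -0.45 to 0.26 for Lrat and -0.37 to 0.15 for Ecm1. In old HFD against young HFD they ran from -0.23 to 0.37 for Lrat, -0.26 to 0.11 for Ecm1 and -0.21 to 0.77 for Des.

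The groups share replicate numbers that belong to different mice. After group means were removed, mice with the same number correlated at 0.182 on average (lowest -0.320), and -0.0467 once batch was removed, so the numbers do not pair the mice. With a replicate block instead of the batch term, 0 of the 9 genes were called in young HFD against young ND (1.07% of all genes higher). There were 9 in old ND against young ND (8.13%) and 6 in old HFD against young ND (13.7%). In old HFD against old ND (3.28% in either direction), old HFD against young HFD (0.964%) and the interaction (0.00736%) there were 0. Lrat in old HFD against young HFD became -0.0595.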
